A study of Mus musculus with 2 samples.

Results

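Gpr83 and 8 other genes for G protein-coupled receptors known from regulatory T cells (Gpr15, Gpr18, Gpr65, Gpr132, Gpr171, Gpr174, Ptger2 and Ptger4) were examined in RNA of inflammation-experienced regulatory T cells. The genes were chosen by name, and all 9 of 9 were matched among 55536 annotated genes. The cells came from 1 group, an adult male mouse of 6 months of the strain Foxp3CreERT2 x Rosa26YFP, in which a tamoxifen-regulated Cre recombinase is driven by the Foxp3 gene and a fluorescent reporter sits in the Rosa26 locus. The labels give bone marrow hematopoietic cells as the origin of the primary cells. PolyA RNA of 1 biological replicate was sequenced as 2 technical libraries, cut into fragments of 100 to 300 bp. No other group was analysed here, so no level could be set against untreated or resting cells, and the labels used here do not say how the inflammation was produced.

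Regulatory T cells, a CD4 lineage, restrain other immune cells. G protein-coupled receptors sense small molecules, lipids, peptides and protons outside the cell and pass the signal to G proteins, whose alpha subunits raise or lower cyclic AMP, mobilise calcium or act on the cytoskeleton. In T cells this family guides migration and lets the surroundings damp or sharpen activation. Gpr83 is a receptor long used as a marker of mouse regulatory T cells, and its proposed ligand is a peptide cut from the precursor encoded by Pcsk1n.

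Gene counts summed to 15386113 for technical replicate 1, against 13604480 for technical replicate 2. Levels are given in TPM, the deposited abundance scaled for transcript length and library depth, as the mean ± SD over the technical libraries (n = 2), so the SD is technical and carries no variation between animals. The labelled cell type was checked on markers. All 6 T cell markers, led by Trac at 3032 and 2964 TPM, and all 6 regulatory T cell markers, led by Izumo1r at 1061 and 1040 TPM, reached 1 TPM in both libraries, and Foxp3 stood at 22.1 and 17.9 TPM. Over 6 lists of other immune cells, the summed level was 19.1 and 20.1 TPM for 5 CD8 and cytotoxic cell markers (3 of 5 at 1 TPM or more, highest Cd8b1), 12.8 and 8.89 TPM for 6 B cell markers (1 of 6, Cd22), and 4.28 and 3.58 TPM for 6 monocyte and macrophage markers (1 of 6, Cd68). Natural killer cell markers summed to 0.50 and 0.89 TPM (0 of 4, highest Klrb1c, with Ncr1, Klre1 and Klra8 at 0), neutrophil markers to 0.55 and 0.80 TPM (0 of 5, highest S100a9), and dendritic cell markers to 0.75 and 0.82 TPM (0 of 5, highest Xcr1, with Itgax at 0). In bulk RNA, fewer cells that express a receptor and less of its RNA per cell cannot be told apart.

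The sequences below are shown because they separate the annotated transcripts on which the levels of Gpr83 and Ptger2 rest. They were read from GENCODE M21 transcripts (mm10), 5′ to 3′, on the plus strand. Gpr83 (ENSMUSG00000031932.14) lies on chromosome 9, from 14860210 to 14870789. Its transcript Gpr83-201 holds a coding exon of 126 bases (chr9:14864772-14864897) that Gpr83-202 lacks. That exon makes up codons 130 to 171 of 423, so Gpr83-202 keeps the reading frame with 381 codons. In the first pair, capitals mark this exon, and the lower-case letters are the 15 bases on either side of it.

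Gpr83-201: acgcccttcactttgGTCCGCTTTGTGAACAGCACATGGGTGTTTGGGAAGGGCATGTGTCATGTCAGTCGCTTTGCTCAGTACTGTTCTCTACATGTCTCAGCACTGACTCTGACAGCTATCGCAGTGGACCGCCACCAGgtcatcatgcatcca

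Gpr83-202: acgcccttcactttggtcatcatgcatcca

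Ptger2 (ENSMUSG00000037759.6) lies on chromosome 14, from 44988195 to 45003820. Its protein-coding transcript Ptger2-201 joins exon 1, which ends at 44989807, to an exon that starts at 45001750, both within the coding sequence. Ptger2-202, annotated as a retained intron, reads on into the intron instead. In the second pair, capitals mark the first 15 intron bases.

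Ptger2-201: tccttgcctttcacaatctttgcctacatg

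Ptger2-202: tccttgcctttcacaGTAAGTCACCTTTGT

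All 9 receptor genes reached 1 TPM in both libraries, between 18.1 and 80.8 TPM, and their median was 45.0 TPM. For comparison, 10288 of 22028 protein-coding genes (46.7%) reached 1 TPM in both libraries, and the median over all protein-coding genes was 0.66 TPM. The genes were chosen with earlier results of these libraries in view, so this difference is a description. Gpr83 was the highest, with 93.0% of protein-coding genes below it, and Gpr15 was the lowest, with 76.7% below it. Together the receptor genes summed to 423.4 and 410 TPM.

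**Figure D1:**
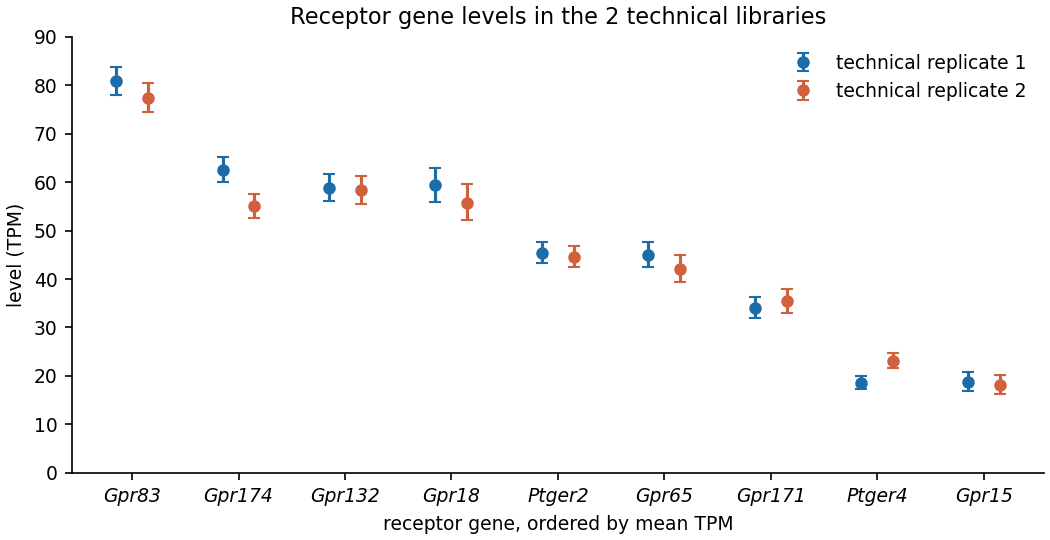
Level in TPM of each receptor gene in technical replicate 1 (blue) and technical replicate 2 (orange), ordered by mean. Bars are exact Poisson 95% intervals of the gene's whole estimated count, rescaled to TPM. They cover counting error of that count only and leave out its division between transcripts, so they are too narrow for Gpr174. The same limit holds for Gpr83, Ptger2 and Ptger4, whose counts were also divided. Gpr83 stands above the other genes at 80.8 and 77.4 TPM, and the intervals of the 2 libraries lie apart for Gpr174 and Ptger4.

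Of the receptors with proposed peptide ligands, Gpr83 reached 80.8 TPM in the first technical library and 77.4 TPM in the second (79.1 ± 2.41 TPM), from 3194 and 2692 estimated counts. Both of these values lay above every value of the other 8 genes. Gpr171, whose proposed ligand is another peptide of the same precursor, reached 34.1 and 35.4 TPM (34.7 ± 0.93 TPM) from 921 and 845 counts. It lies on chromosome 3, from 59096448 to 59101821 on the minus strand, inside Med12l, which runs on the opposite strand and stood at 0.36 and 0.47 TPM. No exon base is shared between them.

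Of the receptors that sense protons and lysolipids, Gpr174 reached 62.5 and 55.0 TPM (58.8 ± 5.28 TPM) from 2308 and 1982 counts. It encodes a receptor for lysophosphatidylserine and lies on chromosome X, from 107255878 to 107296769. Gpr132, known for responses to lysolipids and oxidised fatty acids, reached 58.9 and 58.4 TPM (58.6 ± 0.35 TPM) from 1777 and 1557 counts, and lies on chromosome 12, from 112850873 to 112868228. The TPM intervals of Gpr174 in the libraries lay apart (59.96 to 65.1 and 52.6 to 57.5 TPM). Its counts did not pass the test between libraries given further on (adjusted p = 0.575, exact binomial). These intervals scale the count of the whole gene and leave out the division of counts between transcripts. They are too narrow for Gpr174, where 116.9 and 73.8 counts on transcript Gpr174-205 gave 23.2 and 16.6 TPM. No difference in level is read from the gap. Gpr174 and Gpr132 overlapped in level, since Gpr132 fell between the libraries' values of Gpr174. Gpr65, an acid-sensing receptor that raises cyclic AMP, lies on the same chromosome, from 98268635 to 98276644, and reached 45.0 and 42.1 TPM (43.6 ± 2.04 TPM) from 1129.5 and 934 counts. It shares 511 exon bases (24.7% of its own) with the antisense gene Gm47566, which stood at 0.22 and 0 TPM. Both Gpr65 values were lower than those of Gpr132 and Gpr174. Over protein-coding transcripts only, a setting chosen after seeing the data, the direction against Gpr174 turned, since Gpr174 then stood at 37.1 and 36.6 TPM.

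The prostaglandin E2 receptors, which raise cyclic AMP through the stimulatory G protein, differed in level. Ptger2, which encodes EP2, reached 45.4 and 44.6 TPM (45.0 ± 0.62 TPM) from 1780.6 and 1542.7 counts. Ptger4, which encodes EP4 and lies on chromosome 15 from 5206661 to 5244187, reached 18.6 and 23.2 TPM (20.9 ± 3.21 TPM) from 753.5 and 829 counts. Ptger4 shares 1015 exon bases (15.3% of its own) with the pseudogene Gm15937, at 0.35 and 0.64 TPM, and 82 with Ttc33, at 45.7 and 42.7 TPM, both on the opposite strand. The values of Ptger2 and Ptger4 did not overlap, with Ptger2 higher in both libraries. Over protein-coding transcripts only, the levels were closer, at 24.2 and 23.8 TPM for Ptger2 against 17.6 and 22.4 TPM for Ptger4. An SD of 15.4% of the mean made Ptger4 the least repeatable of the 9 genes, while the other 8 had an SD of 0.591% to 8.98%.

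Gpr18, a leukocyte receptor for which lipid mediators have been proposed as ligands, reached 59.3 and 55.8 TPM (57.5 ± 2.52 TPM) from 1068 and 887 counts. It lies on chromosome 14, from 121911253 to 121915781 on the minus strand, within Ubac2 on the other strand. Ubac2 stood at 65.8 and 80.5 TPM, and no exon bases are shared. Gpr15, which steers T cells to the large intestine, was the lowest at 18.7 and 18.1 TPM (18.4 ± 0.42 TPM) from 369.6 and 316.2 counts. It lies on chromosome 16, from 58717433 to 58719070, and shares 204 exon bases (12.5% of its own) with Cpox on the opposite strand, at 29.0 and 30.6 TPM; the part of Cpox in its level was not tested. Its value in technical replicate 1 lay above that of Ptger4 in the same library, and its value in technical replicate 2 lay below.

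In the order of mean levels, 4 of 8 neighbouring pairs were apart in the sense that neither the libraries' values nor the Poisson intervals overlapped. These gaps lay between Gpr83 and Gpr174 (a ratio of 1.35), Gpr18 and Ptger2 (1.28), Gpr65 and Gpr171 (1.25), and Gpr171 and Ptger4 (1.66). The other 4 pairs were not apart by this rule, which asks for both libraries. Gpr174, Gpr132 and Gpr18 were thus not separated, nor were Ptger2 and Gpr65, or Ptger4 and Gpr15. In technical replicate 2 alone, the intervals of Ptger4 (21.6 to 24.8 TPM) and Gpr15 (16.2 to 20.2 TPM) lay apart. The Poisson intervals leave out the division of counts between transcripts. With TPM summed over protein-coding transcripts only, Gpr174 went to 36.8 TPM and Ptger2 to 24.0 TPM, and both took lower places.

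The transcript tables show what lies behind those values. GENCODE M21 lists 21 transcripts for the receptor genes, and 4 genes (Gpr15, Gpr18, Gpr65 and Gpr171) have a single one. For Gpr132, every count was assigned to Gpr132-201. The other 4 genes divided their counts between transcripts, by the authors' estimation.

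For Gpr83, the transcript without the 126-base exon took the larger share. Gpr83-202 held 60.7% and 60.6% of the gene's TPM (60.6% ± 0.042) and Gpr83-201 held 33.8% and 35.9% (34.9% ± 1.46). The remaining 5.5% and 3.5% went to the retained-intron transcript Gpr83-203. By estimated counts, without scaling for length, Gpr83-202 held 55.1% and 55.3% and Gpr83-201 37.6% and 40.1%. The order was thus the same in both libraries and on both scales. The protein-coding transcripts also differ at their 3′ ends (14870789 for Gpr83-201 and 14870310 for Gpr83-202), so their shares rest on the ends as well as on the skipped exon, and reads over the exon junctions were not analysed here.

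Ptger2 was divided between a protein-coding and an intron-retaining transcript. Ptger2-202, which reads past the exon 1 boundary shown above, held 46.6% and 46.7% of TPM and 38.5% and 38.6% of counts. Ptger2-201 held 24.2 and 23.8 TPM, so the protein-coding level of Ptger2 was lower than its gene level by more than 1.5-fold. Ptger2 is overlapped on the opposite strand by Gm17173, at 48.0 and 55.6 TPM with 246 shared exon bases, and by Gm49364, at 10.02 and 9.29 TPM with 144 shared exon bases. The strand setting of the counting is not given in the sources used here, and the part of these genes in the Ptger2 level was not tested.

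Gpr174 has 7 annotated transcripts, of which 5 are protein coding with the same 335 codons. The 455-base processed transcript Gpr174-205 held 37.1% and 30.1% of TPM but only 5.07% and 3.72% of counts. The long Gpr174-203 held 41.1% and 46.7% of TPM and 70.0% and 72.1% of counts. The level of Gpr174 therefore depended on few counts: 116.9 and 73.8 counts on Gpr174-205 gave 23.2 and 16.6 TPM. The 5 protein-coding transcripts summed to 37.1 and 36.6 TPM, a smaller difference between the libraries than for the gene. The annotation also gives several start sites. The 4 transcripts that start between 107255878 and 107256378 took 91.6% and 95.7% of the counts, and the 2 that start at 107284346, which is the start in the RefSeq table (GRCm38.p6), took 3.32% and 0.616%. The lower share in technical replicate 2 rests mainly on Gpr174-207, at 60.3 and 0 estimated counts. The deposited posterior mean counts, another estimate, give Gpr174-207 92.8 and 59.5 counts.

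Ptger4 was the gene whose leading transcript changed with the library. Ptger4-201 took 75.1% of TPM in the first library but 44.8% in the second, and Ptger4-202 took 19.1% and then 51.7%. They differ in where the first exon ends, and the annotated coding sequence of Ptger4-201 is 25 codons longer. Their 5′ starts on the minus strand differ as well (5244187 for Ptger4-201 and 5244172 for Ptger4-202), so their shares may rest on both. Summed, the protein-coding transcripts stood at 17.6 and 22.4 TPM. The 2 libraries thus disagreed on the shares, and the cause was not tested.

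**Figure D2:**
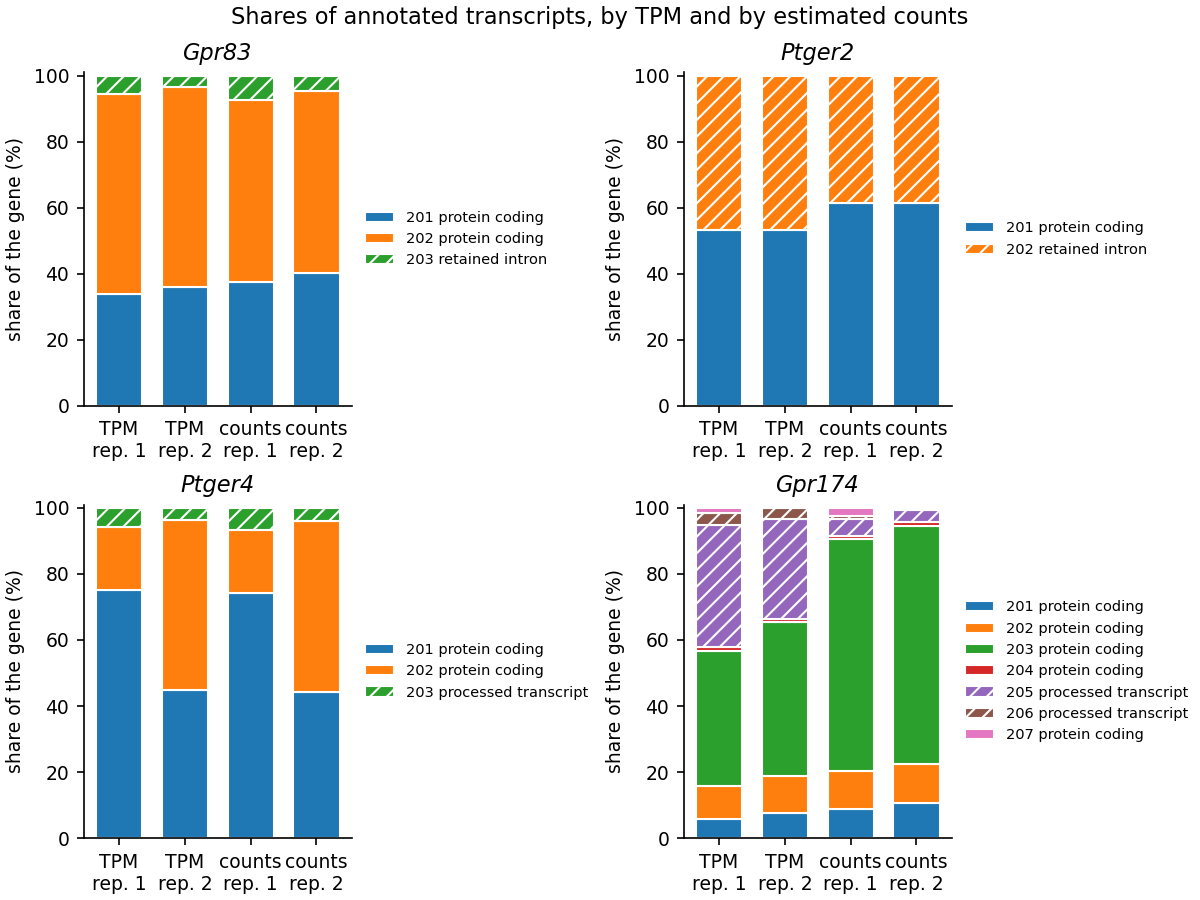
Share in percent of each annotated transcript in the gene's TPM and in its estimated counts, for technical replicates 1 and 2; hatched bars are transcripts not annotated as protein coding. Gpr174-205 takes 37.1% and 30.1% of TPM but 5.07% and 3.72% of counts, and the Ptger4 transcripts trade places between the libraries.

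The ligands and enzymes around these receptors were mostly low. Of 9 genes for the synthesis, transport and removal of prostaglandin E2, 2 reached 1 TPM in both libraries. These were Ptges3 (268.3 and 248.4 TPM), which encodes the Hsp90 co-chaperone p23 and is also described as a cytosolic prostaglandin E synthase, and the exporter gene Abcc4 (7.17 and 7.09 TPM). The synthase gene Ptges2 stood at 0.24 and 1.14 TPM. The inducible cyclooxygenase gene Ptgs2, the synthase gene Ptges and the phospholipase gene Pla2g4a, named after their values were seen, had no read, which allows each up to 0.195 and 0.221 CPM (counts scaled to library depth) by counting error.

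Of 6 genes for other ligands and ligand enzymes, 2 reached 1 TPM. Abhd16a, which makes lysophosphatidylserine, stood at 19.1 and 21.5 TPM, and Abhd12, which degrades it, at 13.8 and 8.99 TPM. The Gpr15 ligand gene 2610528A11Rik had 2 counts in technical replicate 1 and 0 in technical replicate 2. The peptide precursor gene Pcsk1n and the chemokine gene Ccl21a, named after their values were seen, had no read.

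Other receptors of the same kinds were compared by level. Of 7 other prostanoid receptor genes 2 reached 1 TPM in both libraries, namely the thromboxane receptor gene Tbxa2r (16.2 and 18.0 TPM) and the prostacyclin receptor gene Ptgir (5.26 and 5.29 TPM). Ptger1, which encodes EP1, stood at 0.82 and 1.31 TPM. Ptger2 and Ptger4 were thus the highest prostanoid receptor genes, although the value of Ptger4 in technical replicate 1 exceeded the higher Tbxa2r value by little (18.6 against 18.0 TPM). Of 14 related lipid, proton and orphan receptor genes 10 reached 1 TPM. The oxysterol receptor gene Gpr183 (104.4 and 106.9 TPM) lay above Gpr83 in both libraries, and the lysophosphatidylserine receptor gene P2ry10 (63.0 and 62.5 TPM) and the lysophosphatidic acid receptor gene Lpar6 (39.3 and 41.2 TPM) lay below it. P2ry10 has a paralog, P2ry10b, and reads may have been divided between them.

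Among 69 protein-coding genes named Gpr and a number, a group formed after the values were seen, 23 were at 1 TPM or more in each library, and for 24 no read was counted. The 7 receptor genes with such names held places 2 (Gpr83), 3 (Gpr174), 4 (Gpr132), 5 (Gpr18), 8 (Gpr65), 10 (Gpr171) and 13 (Gpr15). The name does not define a receptor family, since it also covers membrane proteins of other kinds.

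The transducers of these signals were present. Of 12 G protein alpha subunit genes 9 reached 1 TPM, led by the inhibitory subunit gene Gnai2 (114.6 and 124.2 TPM), the stimulatory subunit gene Gnas (89.8 and 82.0 TPM) and the inhibitory subunit gene Gnai3 (67.6 and 77.3 TPM). The calcium-coupled subunit genes Gnaq (19.8 and 22.4 TPM) and Gna11 (21.9 and 19.1 TPM) were lower. Of 7 receptor kinase and arrestin genes 6 reached 1 TPM, led by Grk2 (64.0 and 67.0 TPM), Arrb2 (37.7 and 55.8 TPM) and Grk6 (37.2 and 34.8 TPM), which together phosphorylate active receptors and uncouple them.

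**Figure D3:**
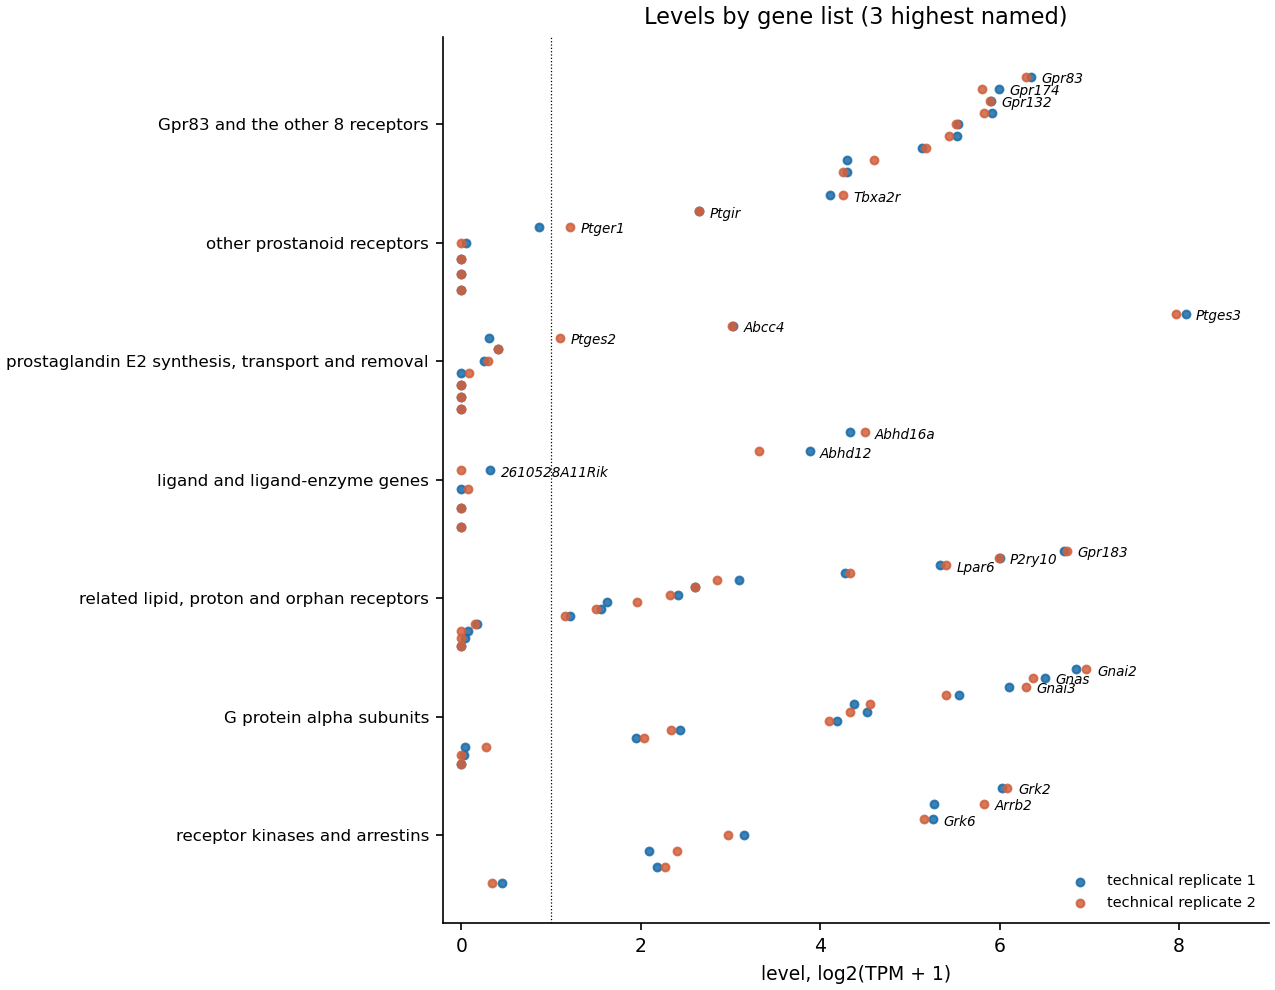
Level as log2(TPM + 1) of the 9 receptor genes and of each gene on 6 related lists in technical replicate 1 (blue) and 2 (orange), with the 3 highest genes of a list named; the dotted line marks 1 TPM. In both libraries all 9 receptor genes lie to the right of the line, as do 2 of 7 other prostanoid receptor genes and 9 of 12 alpha subunit genes.

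To measure how far the counts were repeatable, the technical libraries were set against each other gene by gene (exact binomial, two-sided), which compares these libraries and no conditions and treats read sampling as the only error. Of 17334 genes tested, 19.1% were called at a threshold of 0.05 after Benjamini-Hochberg adjustment. The genes higher in technical replicate 2 made up 9.45% of those tested, and the lower ones 9.63%. Of the 9 receptor genes, 1 was called. This was Ptger4, higher in technical replicate 2 by 0.31 on the log2 scale of counts per effective library size (95% Clopper-Pearson interval 0.17 to 0.46, adjusted p = 0.000358 in the exact test). Among 5435 protein-coding genes with a summed count in the same range as the receptor genes, 24.2% were called. The count of 1 in 9 is read against these shares and says nothing particular about these receptors. The median SD of those 5435 genes was 5.66% of the mean (quartiles 2.65% and 10.3%). Ptger4 thus lay above the upper quartile, and 3 of the 9 receptor genes (Gpr132, Ptger2 and Gpr15) lay below the lower.

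With a dispersion fitted by edgeR to the same libraries, the exact test no longer called Ptger4 (adjusted p = 0.854). Over the other alternatives its adjusted p ran from 0.000329 to 0.000895 in the exact binomial test. For the other 8 genes the log2 ratio lay between -0.097 (Gpr65) and 0.053 (Gpr171). The ratio of Gpr83 was -0.069, with an interval of -0.14 to 0.0055 (adjusted p = 0.204 in the exact test). Intervals of these 8 genes all included 0, and the bound farthest from 0 was -0.27, for Gpr15.

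On the related lists, the exact test called 4 of 9 tested alpha subunit genes, with Gnai2, Gnai3 and Gnaq higher and Gna11 lower in technical replicate 2. It called Arrb2 higher (adjusted p = 3.66e-08), Ptges2 higher and Ptges3 lower, and none of the 10 tested related receptor genes or the 3 tested prostanoid receptor genes. Over all 17334 tested genes 19.1% were called, and no list was tested as a set, so these counts are a description.

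**Figure D4:**
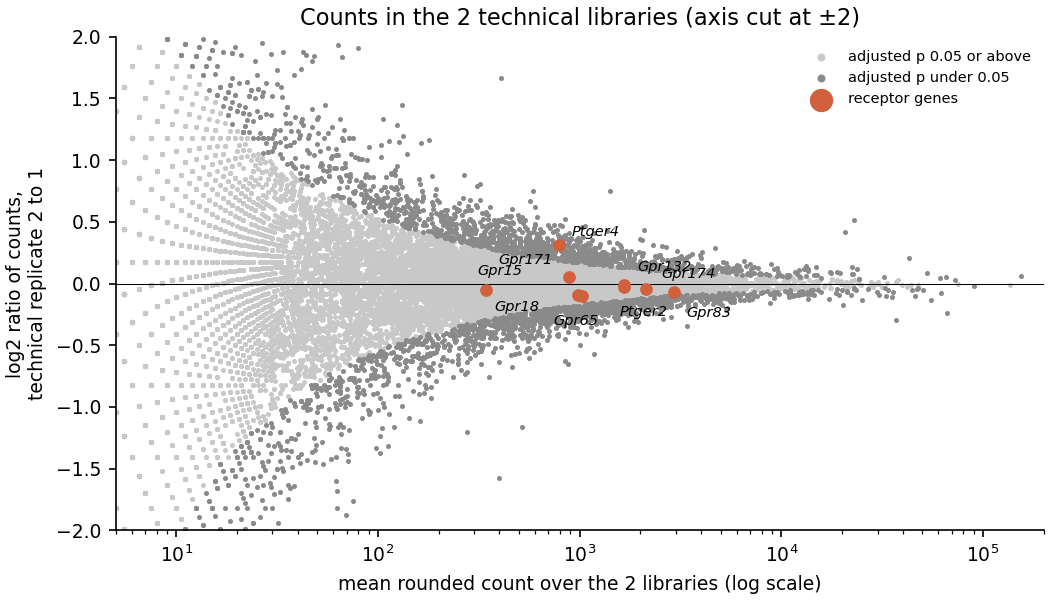
Log2 ratio of counts per effective library size, technical replicate 2 to 1, against the mean count on a log axis for tested genes, with the 9 receptor genes in orange; the axis is cut at a size of 2, which leaves out 444 genes, and 173 genes with no count in one library are not drawn. Ptger4 lies at 0.31 among the called genes in dark grey, and the other receptor genes lie near 0.

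A second gene table, with whole-number counts on GENCODE M4 genes, held 3581589 and 3271045 counts, of which the receptor genes had 190 to 1070 each. These counts are not scaled for length and are not compared between genes. Gpr83 had 1070 and 937 counts. Each gene's share of counts was set against its share in the larger table, over 22195 genes found in both. The ratio of shares was 1.31 and 1.31 for Gpr83 and 2.85 and 2.78 for Gpr15. It was 2.52 and 2.38 for Gpr18, and 0.646 and 0.586 for Gpr174. Over 12037 genes the median was 1.56 and the spread was wide (quartiles 0.89 and 2.25, lower and upper deciles 0.377 and 2.83). Gpr174 was the receptor gene with the lowest ratio, with 382 and 309 counts. In the test on this table, 6.58% of 11051 genes were called. Ptger4 had 190 and 265 counts in it and was the only receptor gene called. Its log2 ratio in the smaller table was 0.61 (adjusted p = 0.000895, exact binomial), against 0.31 in the larger table, and the cause of the gap was not tested.

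**Figure D5:**
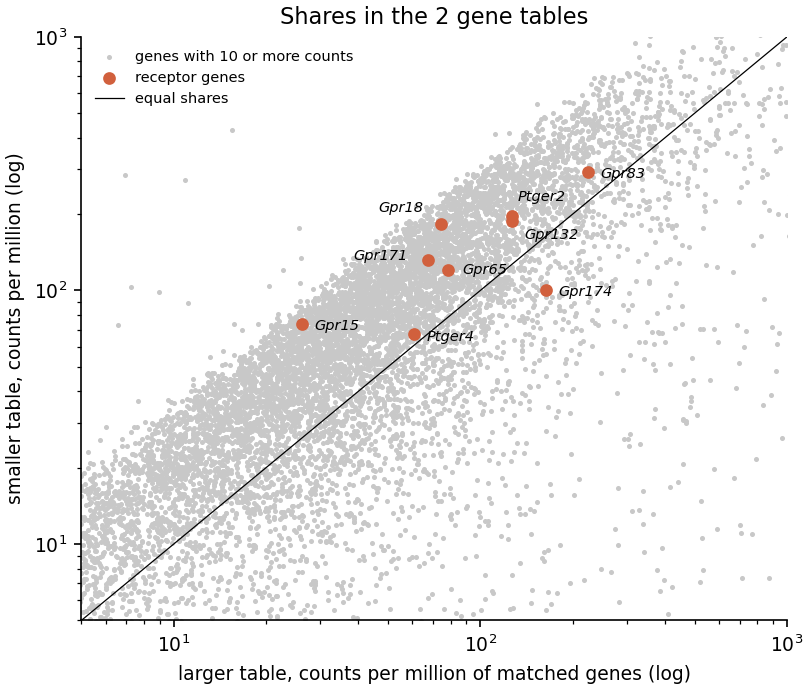
CPM of genes found in both tables, in the larger table (x axis) and in the smaller table (y axis), both on log axes and averaged over the libraries; grey points are genes with 10 or more counts, the line marks equal shares, and genes beyond the axis ends are not drawn. Gpr174 lies below the line at a ratio of 0.646 and 0.586, and Gpr15 lies above it at 2.85 and 2.78. The lower and upper deciles over 12037 genes are 0.377 and 2.83.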

How the data were processed

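The authors deposited, for each technical library, a gene table and a transcript table on mm10 with GENCODE M21, and a smaller gene table with GENCODE M4, per the text deposited with the files. The larger tables hold the authors' expected counts (estimated, not whole for all genes), the authors' TPM, and, for transcripts, the percent of the gene's TPM as deposited. The smaller table holds deposited raw counts. Aligner, quantifier, versions and strand setting are not given in the sources used here.

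Gene symbols came from GENCODE M21. Expected counts were rounded for the exact binomial test (at least 10 counts summed, TMM effective library sizes from edgeR 4.0.16, Benjamini-Hochberg over all genes tested). The test was tried on simulated Poisson counts. Those hold read sampling as the only error, as the test assumes, so the trial cannot show how far calls hold in these libraries. Entries other than genes took 0.174% and 0.158% of counts and were left out. Counts of 5 of the 9 receptor genes were whole in both libraries (tolerance 0.005), and reads of Gpr15, Gpr65, Ptger2 and Ptger4 were partly divided. Poisson and Clopper-Pearson 95% intervals and the limit of 3 counts for a count of 0 cover counting error of the whole gene only. They leave out the division of counts between transcripts. Technical libraries of 1 sample measure technical spread only. DESeq2 1.42.0 gave alternative size factors. From each related list the 3 highest genes and all called genes are named, and from each marker list the highest. A gene of the list of related receptors is not reported here. Members and lists were chosen with earlier results of these data known. With 2 technical libraries no gene was named for a like pattern.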

Additional observations from a re-analysis of the deposited data

How the results depend on the processing

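All 9 receptor genes stayed at 1 TPM or more in both libraries under every alternative tried, and also at thresholds of 0.5 and 5 TPM. Their median level of 45.0 TPM was 39.8 TPM by the posterior mean TPM, 56.0 TPM when TPM was rescaled over protein-coding genes, and 36.8 TPM over protein-coding transcripts only. It ranged from 44.6 to 45.5 TPM with 1 library left out. The number of neighbouring pairs apart was 4 in each setting except without technical replicate 1, where it was 5. This number does not show which pairs were apart, and these changed with the setting. Over protein-coding transcripts only, Gpr174 fell below Gpr65 and Ptger2 below Gpr171, so other genes became neighbours. By CPM, not scaled for length, the order was Gpr83, Gpr174, Gpr132, Ptger2, Gpr65, Gpr18, Gpr171, Ptger4 and Gpr15. Of the gaps by TPM, that between Gpr83 and Gpr174 was kept by CPM. Gpr18 fell below Ptger2, Gpr65 and Gpr171 were no longer neighbours, and the values of Gpr171 and Ptger4 overlapped. The CPM values of Gpr174 and Gpr132, of Ptger2 and Gpr65, and of Ptger4 and Gpr15 did not overlap, although these pairs were not separated by TPM. The number of receptor genes called between the libraries was 1 under 5 alternatives and 0 with the edgeR dispersion. That dispersion counts the difference between these libraries as noise by construction. Over all genes tested, 1.80% were called with it (312 genes), 6.58% in the smaller table (727) and 19.1% in the reported test (3307). The share was 9.55% with no filter beyond 1 count and 17.7% with posterior mean counts. These counts of receptor genes are read against those shares. The log2 ratio of Ptger4 was 0.61 in the smaller table against 0.31, and the cause was not tested. In the smaller table the sign turned for Gpr132 (0.016) and Gpr171 (-0.0049), neither called in any setting. Leaving out a library gives no test between libraries. No paired analysis was possible because there is 1 group.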

Other observations

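Several receptor genes lie beside genes of related use, which were named for their position after their values were seen. Gpr83 is followed on chromosome 9 by Izumo1r, on the opposite strand and 15024 bases away with no annotated gene lying wholly between them. Izumo1r, a folate receptor family gene used as a regulatory T cell marker, stood at 1050 ± 14.98 TPM (n = 2 technical libraries), against 79.1 ± 2.41 TPM for Gpr83. Gpr18 and the higher Gpr183 (105.7 ± 1.75 TPM) are 36.8 kb apart on chromosome 14 on the same strand. No annotated gene lies wholly in between. Gpr171 and P2ry14, which encodes a receptor for sugar nucleotides, are 12033 bases apart on chromosome 3, and P2ry14 stood at 2.48 ± 0.57 TPM against 34.7 ± 0.93 TPM for Gpr171. On chromosome X, the lysophosphatidylserine receptor genes P2ry10 (62.8 ± 0.35 TPM) and P2ry10b (6.89 ± 0.93 TPM) lie 150.9 kb and 82.2 kb from Gpr174. Wholly in between lie 3 and 2 annotated genes. Genes that span a gap or reach into it were not counted, and Gpr18 lies within Ubac2 and Gpr171 inside Med12l. In the pairs with no gene wholly between them, the neighbours' values did not overlap.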
